A study of Homo sapiens with 4 samples.

Results

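The numbered RBM genes encode proteins named for an RNA-binding motif, and RBM25 is 1 of them. The other protein-coding genes whose name is RBM, a number and at most a letter and further digits were taken from the deposited gene names, which gave 36 genes of 58735 in the tables. Counts of these 36 genes were compared between HCT116 cells with an shRNA against RBM25 and HCT116 cells with a control shRNA. HCT116 is an established human colon cancer line, and each group had 2 libraries of total RNA. The labels name no other allele or agent, and for the shRNA sequence, the time after knockdown and whether the cells were pools or clones the sources used here give nothing. Nor do they say that replicates were separate cultures, so each p-value here refers to library spread alone, and that spread may be technical.

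RBM proteins share the RNA recognition motif, a compact fold that binds single-stranded RNA, and differ in the domains around it. Many act in pre-mRNA splicing, where they help the small nuclear ribonucleoproteins choose splice sites, and others serve in exon junction complexes, RNA methylation, nuclear RNA decay or ribosome assembly. RBM25 itself works with the U1 snRNP, the particle that recognises the start of an intron. The name marks a shared motif rather than 1 pathway, so the genes are described by the complex or process each is known for.

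Library totals ran from 15528274 to 16982663 counts. RBM25 (ENSG00000119707, GRCh38 chromosome 14, 73058436 to 73123898) was at 155.3 and 114.9 CPM (TMM-scaled library share) in the controls and at 44.0 and 35.7 CPM after knockdown. It fell by 1.76 ± 0.30 on the log2 scale (SE, edgeR adjusted p = 0.0195). Of 10 epithelial and colon markers, VIL1, CDX1 and LGALS4 stayed below 1 CPM in every library, and CDX1 was at 0, while the other 7, among them EPCAM, CDH1 and KRT8, exceeded it in at least 1 library. The summed level of the 10 was 3405 and 4210 CPM in the controls and 4409 and 5518 CPM after knockdown. KRT8 carried most of that difference, at 1622 and 2091 CPM against 2409 and 3153 CPM, and was called higher in the GC-corrected test described below (0.72, edgeR adjusted p = 0.0134), though not without RBM25_sh replicate 1 or 2. Neither EPCAM nor CDH1 was called (−0.11 and −0.25). Of 10 markers of other cell types, 8 stayed below 1 CPM, CD3E was at 0, and the summed level ran from 38.6 to 64.0 CPM, most of it COL1A1. Their part in the results was not tested. In bulk RNA, fewer cells with a transcript and less of it per cell cannot be told apart.

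The RBM genes covered a wide range of levels. By mean FPKM (the authors' values scaled for transcript length and depth), RBM3, a cold-induced RNA-binding protein, was highest at 35.8. It was followed by RBM42, a partner of hnRNP K, at 26.3, the spliceosome protein RBM22 at 21.7, and RBM38, a target of p53, at 21.6. RBM42 (19.9 to 33.9 FPKM over the libraries), RBM22 (15.9 to 27.3) and RBM38 (15.9 to 28.3) overlapped, so their order is not resolved. RBM39, next at a mean of 21.5 FPKM, overlapped all of these (19.2 to 25.6 FPKM), so its order against them is not resolved either. RBM3 overlapped RBM42 as well (30.8 to 40.3 FPKM). In all, 14 genes had a mean above 10 FPKM. At the low end RBM34, RBM44 and RBM46 had means of 0.431, 0.324 and 0.212 FPKM. RBM11, known from brain and testis, had 0 counts in all 4 libraries, which allows at most 0.177 to 0.193 CPM (3 counts of each library's total, counting error only).

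**Figure D1:**
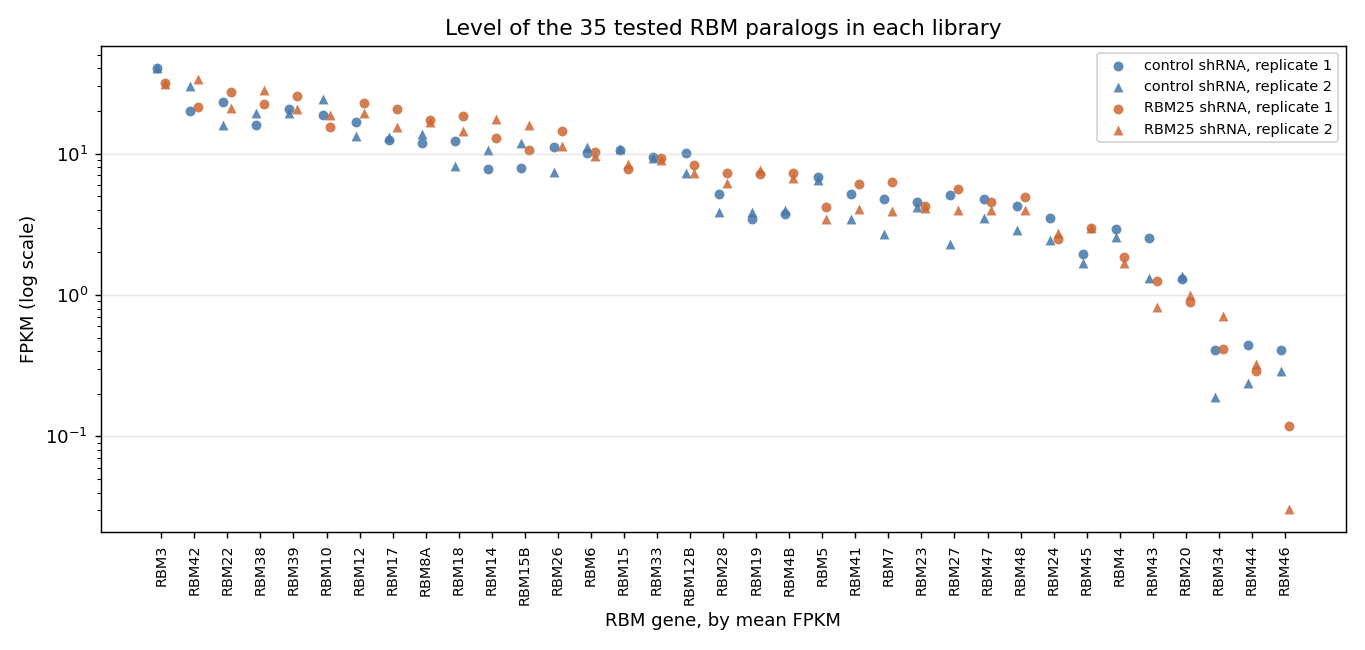
FPKM (log axis) of the 35 RBM genes that passed the filter on low counts, in each of the 4 libraries, ordered by mean. Circles are replicate 1, triangles replicate 2, blue control shRNA and orange RBM25 shRNA; RBM3 is highest at a mean of 35.8 and RBM46 lowest at 0.212.

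After knockdown of RBM25 the RBM genes moved in both directions, and none passed the edgeR threshold on the counts as deposited. With the GC trend of each library removed, 7 rose and 6 fell, 37.1% of the 35 tested, where 28.0% of all genes were called, 12.1% higher and 15.9% lower. RBM19, RBM14 and RBM4B rose most, and RBM46, RBM43, RBM5 and RBM4 fell most. None of the 7 spliceosome-associated genes, such as RBM39, RBM22 and RBM17, passed in either of these fits with all 4 libraries.

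Of the 36 genes, 35 passed the filter, all but RBM11. In edgeR's quasi-likelihood test 0 of 35 were called at an adjusted p below 0.05, where 3.05% of all 16091 genes were called, 0.653% higher and 2.40% lower. At an unadjusted p below 0.05, 4 RBM genes were higher (RBM19, RBM4B, RBM14 and RBM45) and 4 lower (RBM46, RBM43, RBM5 and RBM4), where 21.4% of all genes passed, 7.92% higher and 13.5% lower. DESeq2 called 1 RBM gene, RBM19, which was higher, where it called 6.74% of all genes and 2.40% higher. With limma-voom 0 RBM genes were called, where 2.32% of all genes were. On log2 FPKM limma-trend called 0 as well, where it called 1.34% of all genes with a pseudocount of 1 and 1.67% with 0.1. The median log2 fold change was 0.20 over the 35 genes, of which 21 were above 0, and −0.04 over all genes. With the GC correction these medians were 0.07 and −0.04. The CPM of the groups did not overlap for 22 of the 35, and for 51.8% of all genes. After the GC correction described next it was 24 of 35 and 66.5%.

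Within each group, the replicates differed along GC content. Over the 35 RBM genes, the difference of replicate 2 from replicate 1 had a Spearman correlation with the GC content of the longest transcript of 0.76 (controls) and 0.69 (knockdown). These describe genes that share the same libraries and depth. For the fold change between groups the correlation over the 35 genes was 0.10 as counted and 0.30 after the correction (Pearson's r 0.20 and 0.39). Over 10479 genes it was −0.30 (Spearman) as counted. The correction removes the smooth trend of each library's log2 CPM on GC content before the edgeR test. Any part of the trend that differs between the groups is removed with it, so fold changes move too. RBM12B went from −0.20 to −0.40, RBM14 from 0.70 to 0.87 and RBM18 from 0.65 to 0.44. The correction brought the median SE of the RBM genes from 0.29 to 0.15. Then 13 of 35 RBM genes were called, 7 higher and 6 lower, beside the 28.0% of all genes given above. Below, "rose" and "fell" refer to this GC-corrected test. Of the 13, 5 were also called in it without any 1 library, namely RBM19, RBM14, RBM4B, RBM5 and RBM43. The other 8 lost the call without 1 or either of the knockdown libraries, and none of them without a control library. The share of all genes that kept a call without any 1 library was not computed, so the 5 have no background to be read against. Leaving out a control library added calls. Without control_sh replicate 1, RBM22, RBM26, RBM27 and RBM42 were also higher and RBM6 lower, where 37.6% of all genes were called. Without control_sh replicate 2, RBM12, RBM17, RBM45 and RBM8A were also higher and RBM15 lower, where 33.2% of all genes were called.

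**Figure D2:**
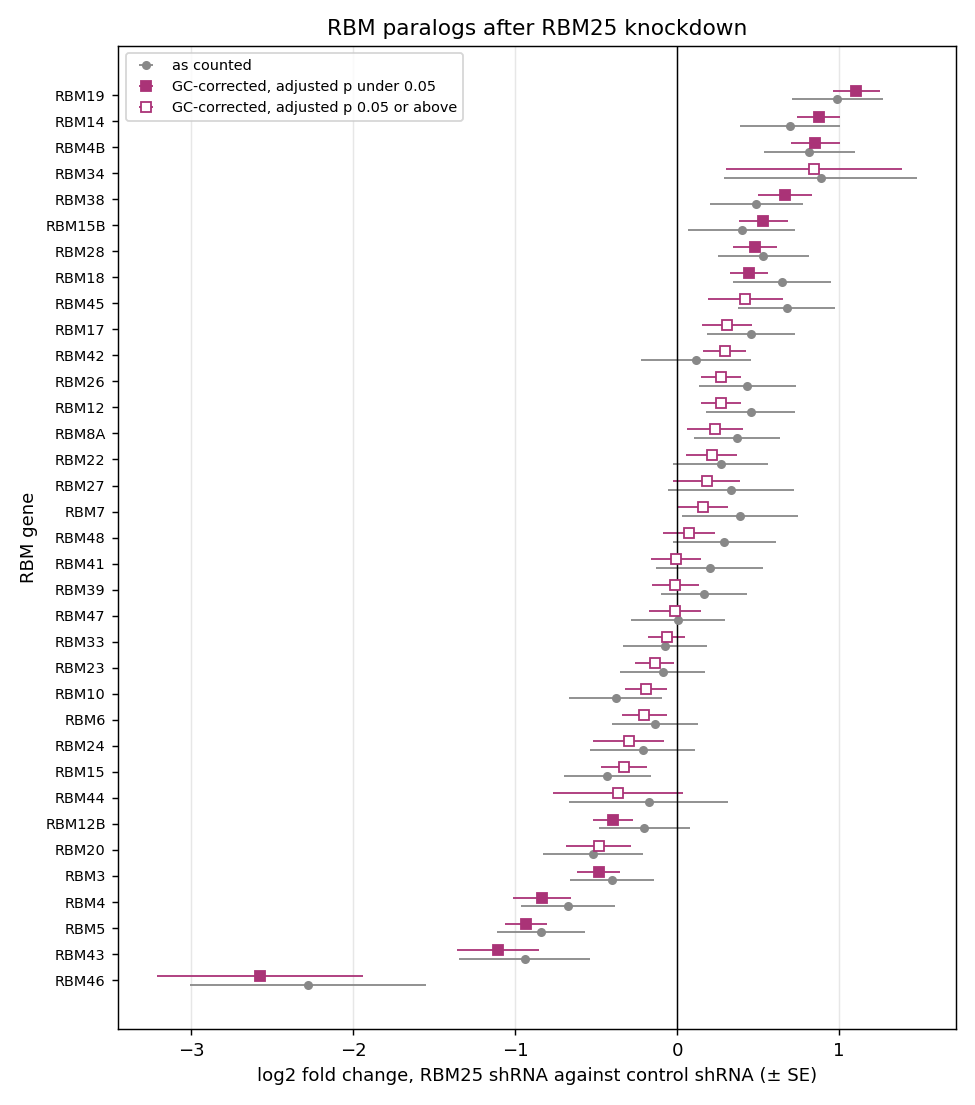
Log2 fold change (x axis, ± SE) of the 35 RBM genes, RBM25 shRNA against control shRNA, as counted (grey circles) and after the GC correction (squares, filled where the edgeR adjusted p is under 0.05). RBM19 is at the top with 1.11 and RBM46 at the bottom with −2.58, both after the correction; 7 filled squares lie right of 0 and 6 left of it.

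**Figure D3:**
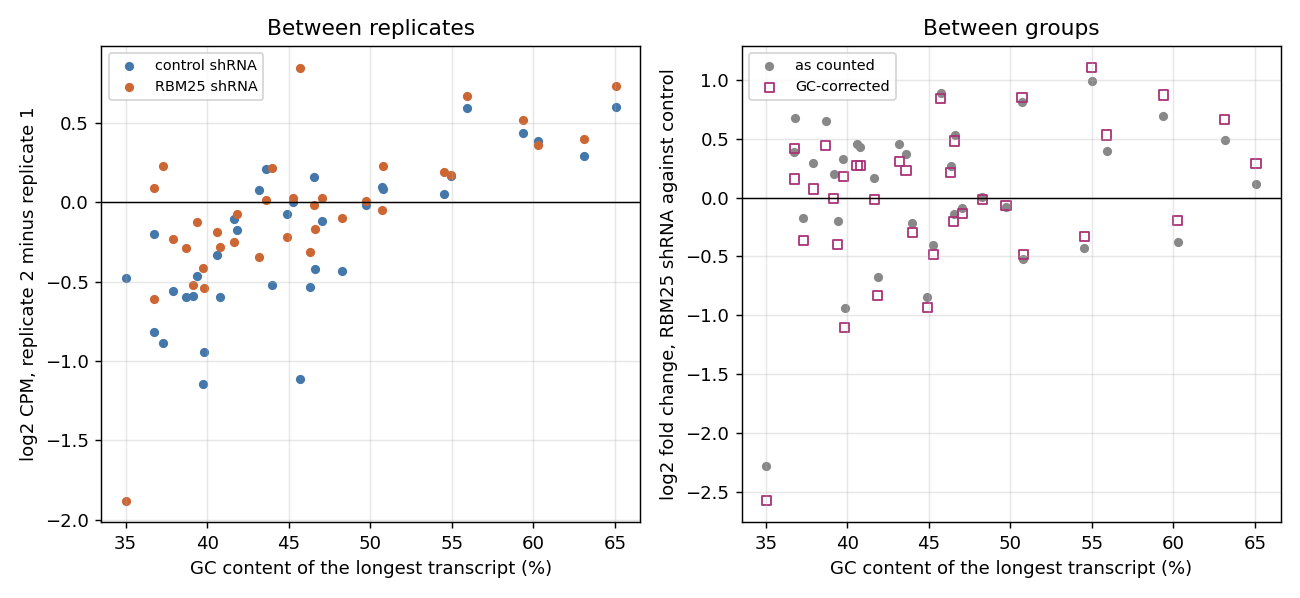
The 35 RBM genes against the GC content of their longest transcript (x axis, percent). Left, log2 CPM of replicate 2 minus replicate 1 climbs with GC content in both groups; right, the log2 fold change between groups as counted (grey) and GC-corrected (open squares) has a Spearman correlation with GC content of 0.10 and 0.30.

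Of the 3 nucleolar genes of ribosome assembly, 2 rose, where 12.1% of all genes did, and RBM34 was above 0. RBM19, needed for processing of ribosomal RNA precursors, was at 21.2 and 23.8 CPM in the controls and at 41.9 and 47.3 CPM after knockdown. Both knockdown libraries lay well above both controls, with a log2 fold change of 0.99 ± 0.28 as counted (edgeR adjusted p = 0.0888), the smallest p of the 35. RBM19 rose after the correction by 1.11 ± 0.14, or 2.15-fold (edgeR adjusted p = 0.00132). RBM28, a nucleolar protein of large-subunit assembly, was at 85.8 and 64.0 CPM in the controls and at 115 and 102 CPM after knockdown. The groups did not overlap, and RBM28 rose by 0.48 ± 0.13 (edgeR adjusted p = 0.0280), but not without RBM25_sh replicate 1 (adjusted p = 0.203) or 2 (adjusted p = 0.103). RBM34, the other nucleolar protein, had only 21 and 11 counts in the controls and 19 and 36 after knockdown, and its groups overlapped. Of its exonic bases 51.5% also lie in exons of ARID4B on the same strand, which had a mean of 1052 counts, so the value of RBM34 is uncertain.

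RBM4 and RBM4B, neighbours on chromosome 11 whose proteins regulate exon inclusion, went in opposite directions. RBM4 (GRCh38 chromosome 11, 66638617 to 66668374, plus strand) was at 19.9 and 17.6 CPM in the controls and at 12.1 and 11.5 CPM after knockdown. RBM4B (66664998 to 66677921, minus strand) was at 16.9 and 18.0 CPM in the controls and at 31.3 and 30.2 CPM after knockdown. The groups of neither gene overlapped. RBM4 fell after the GC correction by 0.83 ± 0.18 (edgeR adjusted p = 0.0104; adjusted p = 0.0745 without RBM25_sh replicate 1) and RBM4B rose by 0.85 ± 0.15 (edgeR adjusted p = 0.00457). As counted the values were −0.67 ± 0.29 and 0.82 ± 0.28 without a call (edgeR adjusted p = 0.221 and 0.140).

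Because the genes are close copies, the sequences bear on how far their reads can be told apart. The longest coding sequences, 1095 bases in RBM4 and 1080 in RBM4B, were identical at 87.8% of their 1074 aligned bases. The first 180 coding bases, which encode the start of the protein where its first RNA recognition motif lies, are shown from the GENCODE 29 transcripts with the differing base in capitals; they differ at 1 base.
RBM4B: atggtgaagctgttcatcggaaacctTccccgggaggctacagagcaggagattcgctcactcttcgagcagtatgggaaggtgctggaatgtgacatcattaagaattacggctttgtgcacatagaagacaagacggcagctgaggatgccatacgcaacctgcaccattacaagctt
RBM4: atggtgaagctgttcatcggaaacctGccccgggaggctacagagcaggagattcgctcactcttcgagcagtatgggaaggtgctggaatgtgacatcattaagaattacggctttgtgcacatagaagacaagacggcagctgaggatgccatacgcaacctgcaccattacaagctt

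The 120 coding bases with the most differences, 714 to 833 of RBM4B and 717 to 836 of RBM4, differ at 27 bases, again in capitals. They show where a read can be assigned to 1 gene.
RBM4B: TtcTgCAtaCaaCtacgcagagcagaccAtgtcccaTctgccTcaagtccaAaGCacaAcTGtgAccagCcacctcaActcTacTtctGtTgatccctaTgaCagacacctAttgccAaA
RBM4: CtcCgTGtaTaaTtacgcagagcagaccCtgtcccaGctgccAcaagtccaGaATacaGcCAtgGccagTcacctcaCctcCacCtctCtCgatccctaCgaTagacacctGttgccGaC

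Of 4434 windows of 50 bases in the RBM4B transcripts, 761 also occurred in RBM4, on either strand, and 783 in any other gene. In RBM4 2070 of 6755 windows occurred in another gene, 1512 of them in the RBM14-RBM4 readthrough gene. The annotated exons of RBM4 and RBM4B also overlap by 590 bases on opposite strands. No source used here tells how such reads were counted, so the levels of both genes are uncertain to that extent.

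RBM14, a transcriptional coactivator found in paraspeckles, lies just upstream of RBM4 on the same strand. It was at 32.1 and 43.3 CPM in the controls and at 50.2 and 72.0 CPM after knockdown. Both knockdown libraries exceeded both controls, and RBM14 rose by 0.87 ± 0.13 after the GC correction (edgeR adjusted p = 0.00222), against 0.70 ± 0.31 as counted (edgeR adjusted p = 0.229). The readthrough RBM14-RBM4 had 9 and 11 counts in the controls and 11 and 17 after knockdown.

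RBM12 and RBM12B, less studied relatives with several motifs each, also differed. RBM12 was at 116 and 92.7 CPM in the controls and at 152 and 134 CPM after knockdown, a GC-corrected difference of 0.27 ± 0.12 that did not pass (edgeR adjusted p = 0.125). Of RBM12's exonic bases 8.58% also lie in exons of CPNE1 on the same strand, which had a mean of 2356.5 counts. CPNE1 fell by 0.40 after the correction (edgeR adjusted p = 0.0359). RBM12B was at 80.2 and 58.2 CPM against 62.7 and 57.6 CPM, which overlapped. RBM12B fell after the correction by 0.40 ± 0.12 (edgeR adjusted p = 0.0423), but not without RBM25_sh replicate 1 (adjusted p = 0.404) or 2 (adjusted p = 0.176). Of its exonic bases 28.5% overlap FAM92A, which lies on the other strand. Since no strand setting is stated, it is unknown whether reads of both genes were told apart there. FAM92A was at −0.17 after the correction (edgeR adjusted p = 0.339).

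RBM5, RBM6 and RBM10 share an OCRE domain and regulate splicing of apoptosis and proliferation genes. RBM5 was at 73.5 and 69.8 CPM in the controls and at 43.1 and 37.0 CPM after knockdown, with the knockdown libraries far below the controls. It fell 1.91-fold after the GC correction (log2 fold change −0.93 ± 0.13, edgeR adjusted p = 0.00179), and was at −0.84 ± 0.27 as counted (edgeR adjusted p = 0.121). RBM6 lies next to RBM5 on chromosome 3 and shares 456 exonic bases with it. RBM6 was at 76.1 and 84.9 CPM in the controls and at 73.6 and 72.8 CPM after knockdown, and its difference of −0.20 ± 0.14 did not pass (edgeR adjusted p = 0.301). RBM10, on the X chromosome, was at 76.0 and 99.4 CPM against 58.9 and 75.8 CPM, and its difference of −0.19 ± 0.13 did not pass either (edgeR adjusted p = 0.296).

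RBM15 and RBM15B recruit the enzymes that methylate adenosine in mRNA, the m6A writer complex. RBM15B was at 54.5 and 82.3 CPM in the controls and at 69.6 and 111 CPM after knockdown, where the groups overlapped and replicate 2 was higher in each. RBM15B rose after the correction by 0.53 ± 0.15 (edgeR adjusted p = 0.0316). Without RBM25_sh replicate 2 it was at 0.34 (edgeR adjusted p = 0.327). RBM15 had its knockdown libraries below both controls, at 36.0 and 41.1 CPM against 51.0 and 52.8 CPM, but its difference of −0.33 ± 0.14 did not pass (edgeR adjusted p = 0.116). Of the exonic bases of RBM15B, 20.0% overlap DCAF1 on the other strand, which itself rose by 0.51 (edgeR adjusted p = 0.0452).

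Related genes can be compared within each library, since their ratio does not depend on library scaling. The ratio of RBM4B to RBM4 counts was 0.848 and 1.02 in the controls and 2.59 and 2.63 after knockdown, 2.81-fold higher. For RBM14 to RBM4 it was 1.61 and 2.46 against 4.16 and 6.28. The ratio of RBM15B to RBM15 was 1.07 and 1.56 against 1.93 and 2.70, and that of RBM6 to RBM5 was 1.04 and 1.22 against 1.71 and 1.97. RBM12B to RBM12 was lower after knockdown, at 0.412 and 0.430 against 0.688 and 0.628. In these 5 pairs the groups did not overlap, with or without the GC correction. For single genes, the groups of 51.8% of all genes did not overlap as counted, and of 66.5% after the correction. The share over other gene pairs was not computed. RBM4 recurs among these 5 pairs, so the ratios are not independent.

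The other 4 pairs gave mixed results. RBM38 to RBM24, 3.53 and 6.22 against 7.05 and 7.99, did not overlap either way. RBM10 to RBM5 overlapped as counted (1.03 and 1.42 against 1.37 and 2.05) and not after the correction, and RBM23 to RBM39 the reverse (0.257 and 0.255 against 0.196 and 0.237). RBM27 to RBM26 overlapped in both (0.296 and 0.203 against 0.251 and 0.229). The 9 pairs were chosen after values had been seen, and with 2 libraries against 2 an exact permutation test cannot go below p = 0.333, so the ratios are a description.

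**Figure D4:**
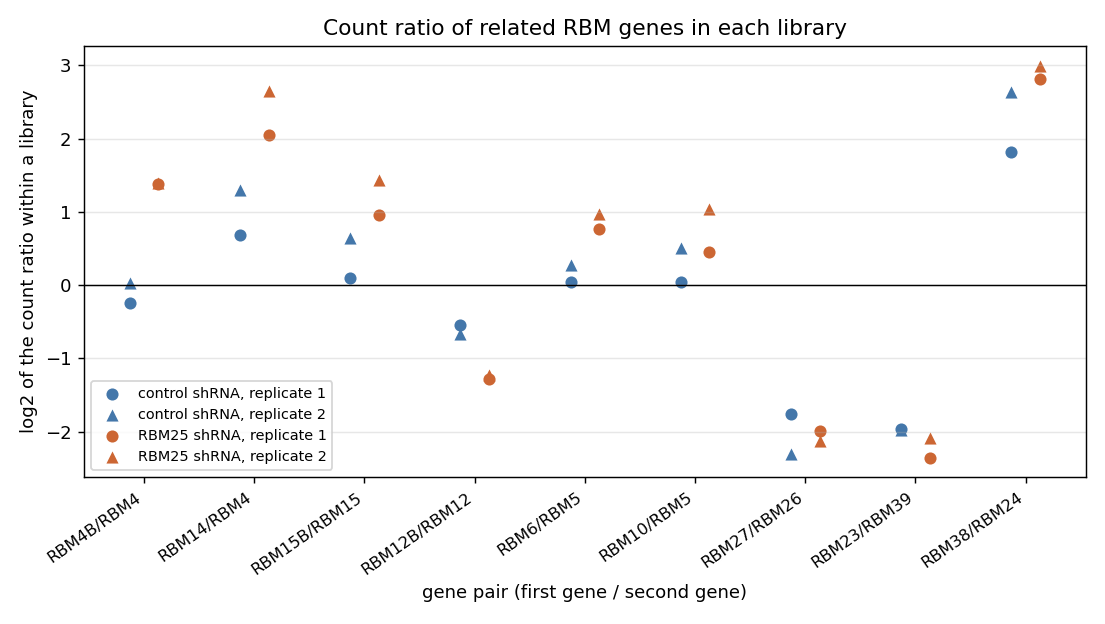
Log2 of the ratio of counts within each library (y axis) for 9 pairs of related RBM genes. Blue is control shRNA, orange RBM25 shRNA, circles replicate 1 and triangles replicate 2; for RBM4B/RBM4 the controls lie near 0 and both knockdown libraries above 1.

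With all 4 libraries the spliceosome-associated RBM genes did not pass as counted or after the GC correction. RBM17 did pass as counted when replicate number was added to the fit (0.45, edgeR adjusted p = 0.0291). After the GC correction RBM22 was at 0.41 and RBM42 at 0.39 without control_sh replicate 1, and RBM17 at 0.51 without control_sh replicate 2. RBM39, a U2AF-like factor known as the target of sulfonamide degraders, was the highest of them in CPM, at 258 and 239 in the controls and 303 and 255 after knockdown. These overlapped, and the log2 fold change of RBM39 was 0.16 ± 0.26 as counted and −0.01 ± 0.15 after the correction (edgeR adjusted p = 0.959). RBM17, which contacts factors at the 3′ splice site, was at 83.1 and 87.5 CPM against 131 and 103 CPM. Its groups did not overlap, but the GC-corrected difference of 0.31 ± 0.15 did not pass (edgeR adjusted p = 0.163). RBM22, at the catalytic core of the spliceosome, was at 86.3 and 59.8 CPM against 97.5 and 78.4 CPM (0.21 ± 0.16). RBM42 was at 45.6 and 69.2 CPM against 46.7 and 77.7 CPM (0.29 ± 0.13), RBM23, a relative of RBM39, was at −0.14 ± 0.12, and RBM48 and RBM41, tied to minor introns, were at 0.07 ± 0.16 and −0.01 ± 0.15.

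RBM8A, or Y14, the motif protein of the exon junction complex, was at 69.2 and 80.1 CPM in the controls and at 95.7 and 96.8 CPM after knockdown. The groups did not overlap, while the difference of 0.23 ± 0.17 after the GC correction did not pass (edgeR adjusted p = 0.340). The genes of nuclear RNA decay and export also did not pass with all 4 libraries, as counted or GC-corrected. RBM7 and RBM26 were called higher as counted when replicate number was added to the fit. RBM26 and RBM27, which link polyadenylated RNA to the exosome, were at 0.27 ± 0.12 and 0.18 ± 0.21. RBM7, of the NEXT complex that feeds short-lived nuclear RNA to the exosome, was at 0.16 ± 0.16. RBM33, an RNA export adaptor, was at 129.5 and 127.8 CPM in the controls and 121.6 and 122.5 CPM after knockdown (−0.07 ± 0.12). Of RBM27's exonic bases 45.4% are shared with AC091959.3, a protein-coding gene on the same strand with 0 counts.

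The stress-responsive RBM3 and RBM38 moved apart. RBM3 was at 156.2 and 156.7 CPM in the controls and at 117.3 and 119.5 CPM after knockdown. As counted the spread within each group was narrow with a gap between them, but RBM3 was not called (−0.40 ± 0.26, edgeR adjusted p = 0.413). In GC-corrected log2 CPM RBM3 spread more widely, at 7.22 and 7.44 in the controls and 6.77 and 6.92 after knockdown. It fell by 0.49 ± 0.13 after the GC correction (edgeR adjusted p = 0.0256), and lost the call without RBM25_sh replicate 1 (adjusted p = 0.310) or 2 (adjusted p = 0.136). CIRBP, the other cold-inducible RNA-binding protein, was at 127.9 and 273.7 CPM in the controls and at 99.9 and 127.6 CPM after knockdown, and fell by 0.60 ± 0.19 (edgeR adjusted p = 0.0442). That call was lost without RBM25_sh replicate 1 (edgeR adjusted p = 0.140), RBM25_sh replicate 2 (0.141) or control_sh replicate 2 (0.0615). The difference was −0.27 without control_sh replicate 2 and −0.89 without control_sh replicate 1. RBM38, which binds and stabilises or represses p53-pathway mRNAs, was at 44.5 and 54.5 CPM in the controls and at 60.0 and 78.9 CPM after knockdown. It rose by 0.67 ± 0.17 (edgeR adjusted p = 0.0187; adjusted p = 0.107 without RBM25_sh replicate 1).

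Among genes known from restricted tissues, RBM46, a germ-cell factor, had 27 and 22 counts in the controls and 7 and 2 after knockdown. It fell by 2.58 ± 0.64 after the GC correction (edgeR adjusted p = 0.0177; adjusted p = 0.0960 without RBM25_sh replicate 2), a size that rests on few counts. RBM47, an epithelial partner of the APOBEC1 editing enzyme, was expressed at 42.2 and 31.3 CPM in the controls and 38.1 and 35.7 CPM after knockdown, and its difference was −0.01 ± 0.16. RBM20, known for titin splicing in heart, was at 10.9 and 11.6 CPM against 7.24 and 8.47 CPM. Its groups did not overlap and its difference of −0.48 ± 0.20 did not pass. RBM24, a muscle splicing factor related to RBM38, was at −0.30 ± 0.22, and RBM44, with 44, 27, 26 and 32 counts, at −0.36 ± 0.40.

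Of the remaining 3 genes, RBM43 fell and RBM18 rose. RBM43 was at 12.5 and 6.47 CPM in the controls and at 5.83 and 4.01 CPM after knockdown. The lower control lay close to the higher knockdown library, and RBM43 fell 2.15-fold after the GC correction (log2 fold change −1.11 ± 0.25, edgeR adjusted p = 0.0130). RBM18, at 66.5 and 44.0 CPM against 95.1 and 78.1 CPM, rose by 0.44 ± 0.12 (edgeR adjusted p = 0.0230), but not without RBM25_sh replicate 1 (adjusted p = 0.193) or 2 (adjusted p = 0.179). RBM45, a protein of stress granules, was at 9.68 and 8.42 CPM against 14.0 and 14.9 CPM. Its difference was 0.68 ± 0.30 as counted and 0.42 ± 0.23 after the correction, without a call in either (edgeR adjusted p = 0.230 and 0.204).

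Partner genes were read from 7 lists of complexes with 52 tested genes, and 1 list of 8 tested genes that only share an RBM-type name. As counted 0 of the 60 were called, where 3.05% of all genes were. At an unadjusted edgeR p below 0.05, 5 were higher and 2 lower, where 7.92% of all genes were higher and 13.5% lower. DESeq2 called 3 of the 60, where it called 6.74% of all genes. With the correction 12 of the 52 complex genes rose and 3 fell, 28.8% beside the 28.0% of all genes. Of these 15, only U2AF2, LUC7L, PRPF40B and SFPQ were also called without any 1 library, and the other 11 lost the call without either RBM25_sh library. The share of all genes that kept or lost a call in this way was not computed. The NineTeen-related partners of RBM22, which activate the spliceosome, had 5 of 8 higher and none lower, where 12.1% of all genes were higher. All 5 are among those 11. Among them AQR, an intron-binding helicase, rose by 0.49 ± 0.12, the spliceosome component SNW1 by 0.44 ± 0.12, and PRPF19, the ubiquitin ligase of the complex, by 0.47 ± 0.13. Of 8 U2 and branch-site partners of RBM17 and RBM39, 2 rose and none fell, where 12.1% of all genes rose and 15.9% fell. U2AF2, which reads the polypyrimidine tract, rose by 1.02 ± 0.13 (edgeR adjusted p = 0.00136), from 1584 and 3215 counts to 2932 and 4585, and PUF60 by 0.58 ± 0.13 (edgeR adjusted p = 0.180 without RBM25_sh replicate 1 and 0.0701 without replicate 2).

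Over all genes 12.1% rose and 15.9% fell, which stands beside the count of each further list. Of 11 U1 snRNP and LUC7-like partners of RBM25, 2 rose and 2 fell. The U1-associated LUC7L rose by 0.93 ± 0.15, and PRPF39 was the other that rose, while PRPF40B, a bridge between U1 and the branch site, fell by 1.10 ± 0.21 and the U1 protein gene SNRPC by 0.54 ± 0.13. Without RBM25_sh replicate 1 or 2 the edgeR adjusted p was 0.156 and 0.0677 for PRPF39 and 0.0833 and 0.190 for SNRPC. Of 3 paraspeckle partners of RBM14, SFPQ rose by 0.83 ± 0.14 (edgeR adjusted p = 0.00391), and NONO and PSPC1 did not pass. Of 9 exon junction and decay partners of RBM8A, UPF2 and the core subunit gene CASC3 each rose by 0.46 ± 0.12, and without RBM25_sh replicate 1 or 2 the edgeR adjusted p was 0.166 and 0.154 for UPF2 and 0.217 and 0.154 for CASC3. None of the 6 m6A writer partners of RBM15 passed. All 6 were above 0 as counted, while METTL3 was at −0.02 after the correction. Their median was 0.40 as counted and 0.27 after the correction, where that of all genes was −0.04 in both. Of 7 partners of RBM7, RBM26 and RBM27, 1 fell, the NEXT scaffold gene ZCCHC8 (−0.61 ± 0.13, edgeR adjusted p = 0.111 and 0.0896 without RBM25_sh replicate 1 or 2). Of 8 tested genes with RBM-type names outside the numbered series, RBMS2 (−1.04 ± 0.13) and CIRBP fell and RBPMS (0.70 ± 0.18) rose. RBMS2 was called without any 1 library, and RBPMS was not without RBM25_sh replicate 1 (edgeR adjusted p = 0.153).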

How the data were processed

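For each library the authors deposited raw read counts and FPKM values by gene. Of software, the submitters' processing notes list, with no roles, Cufflinks 2.1.1, Cuffdiff 2.1.1, TopHat2 2.0.9 and Bowtie2 2.0.6. Counting tool, strand setting and build: not given in the sources used here. All 58735 gene positions equal GENCODE 29 on GRCh38, which supplied transcripts, exons and GC content. Counts of all genes were tested with edgeR 4.0.16 in R 4.3.3 (filterByExpr, TMM, quasi-likelihood F test on group alone, 2 residual degrees of freedom, two-sided). P-values were Benjamini-Hochberg adjusted over 16091 genes, with a threshold of 0.05. The SE is derived from the F statistic. For the GC correction, each library's lowess trend (span 0.3) on GC content, fitted to its deviations from the gene means, entered as an offset. Differences are RBM25_sh minus control_sh. Fits were also run on simulated counts, with a GC trend that was absent or followed replicate number alone. That run cannot show how the correction acts on a trend between groups, and no result here rests on it.

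Members, lists, pairs and the correction were chosen with earlier results of these data known. By rule, values per library are given for RBM genes called in either fit, the 5 with the largest change where average log2 CPM reached 3, and the 4 highest and 4 lowest by mean FPKM. Of each partner list at most 3 called genes, by smallest GC-corrected p, carry values. Values of further RBM genes were added after they had been seen. Alternatives were DESeq2 1.42.0 (its size factors, and its Wald test), library totals, no filter or 1 CPM in both libraries of a group, limma 3.58.1 (voom, and trend on FPKM at either pseudocount, 1 or 0.1), the replicate block, the GC correction, and leaving out each library. The GC correction without each library was added after seeing the data. Figures used matplotlib 3.10.9 and alignments Biopython 1.88.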

Additional observations from a re-analysis of the deposited data

How the results depend on the processing

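RBM25 was below 0 in all fits run. Its log2 fold change ranged from −1.96 to −1.52 without 1 library as counted and from −2.03 to −1.93 without 1 library after the GC correction. The call was lost as counted without RBM25_sh replicate 1 or 2 (−1.90 and −1.58), and in limma-trend on log2(FPKM + 1) (−1.46, adjusted p = 0.0572). Without 1 library as counted, the median log2 fold change of the RBM genes ranged from 0.02 to 0.32, and that of all genes from −0.08 to 0.01. Of all genes 3.05% were called as counted, 28.0% with the GC correction, 6.74% with DESeq2 and 4.65% without a filter. As counted, the set of RBM genes called changed when control_sh replicate 2 was left out. The RBM genes called higher and lower, 0 and 0 as counted with all 4 libraries, were 7 and 6 with the GC correction. They were 1 and 0 with DESeq2, and 0 and 1 (RBM46) without a filter. After the GC correction they were 4 and 3 without RBM25_sh replicate 1 or 2, where 13.1% and 13.9% of all genes were called, and 11 and 7 without control_sh replicate 1 or 2, where 37.6% and 33.2% were. The set of partner genes called as counted changed when either control library was left out. The partner genes called over the 8 lists, 0 as counted with all 4 libraries, were 18 with the GC correction, 3 with DESeq2 and 1 without a filter. After the GC correction they were 6 and 7 without RBM25_sh replicate 1 and 2, and 33 and 25 without control_sh replicate 1 and 2. The cause was not tested.

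Across genes, deviations of libraries with equal replicate numbers correlated at 0.47, and at 0.14 after the GC correction, but the labels do not say what a number shares. With the replicate block 11 RBM genes were called higher and 5 lower, where 35.6% of all genes were called, and 22 partner genes. RBM7, RBM12, RBM17 (0.45, edgeR adjusted p = 0.0291), RBM26 and RBM45 were called higher and RBM15 lower there and not with the GC correction, while RBM15B, RBM3 and RBM12B were not called. With the block and the GC correction the counts were 7, 6 and 24, where 38.5% of all genes were called, and the 13 RBM genes were those called with the correction alone.

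Of the 35 RBM genes 26 kept their sign in all 19 alternatives, and no value of opposite sign was called. With the GC correction, alone and with the block, RBM39 was at −0.013 and −0.0055, RBM41 at −0.0065 and −0.0098, and RBM47 at −0.014 and −0.0036. RBM47 was also at −0.10 by library totals and −0.0036 with the filter of 1 CPM, and RBM42 at −8.5e-05 by library totals. Without 1 library as counted, RBM12B ranged from −0.42 to 0.055, RBM24 from −0.45 to 0.079, RBM27 from −0.13 to 1.02, RBM41 from −0.068 to 0.53, RBM42 from −0.26 to 0.46, RBM44 from −0.56 to 0.34 and RBM47 from −0.20 to 0.25. After the GC correction without 1 library, RBM27 was at −0.10 without control_sh replicate 2, RBM39 at −0.014 without RBM25_sh replicate 1 and −0.15 without control_sh replicate 1, and RBM8A at −0.0017 without control_sh replicate 1. RBM41 and RBM47 were at −0.13 and −0.048 without RBM25_sh replicate 1 and at −0.040 and −0.21 without control_sh replicate 2. Library totals moved the median of all genes from −0.04 to −0.15. Few counts limit RBM34, RBM44 and RBM46.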

Other observations

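Of the other gene names that begin with a numbered RBM name, 1 is named here after its values were seen. RBM26-AS1, annotated as antisense, overlaps the start of RBM26 on the other strand by 169 exonic bases. Its counts were 58 and 87 for control shRNA and 14 and 5 for RBM25 shRNA. The log2 fold change was −2.76 ± 0.56 as counted (edgeR adjusted p = 0.0358). GC-corrected, the antisense gene was at −3.04 ± 0.53 (edgeR adjusted p = 0.00415). RBM26 itself was at 0.43 ± 0.30 as counted and was called in neither fit. RBM12B-AS1 had counts of 45 and 59 against 36 and 31 and was not called (−0.48 ± 0.42, edgeR adjusted p = 0.542). Of the remaining 9, the readthrough RBM14-RBM4 is described above and the other 8 had at most 8 counts in any library.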
